A study of Mus musculus with 15 samples.

Results

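Hif1a, Runx1, Fos and Irf5 encode transcription factors used by macrophages, and all 4 had at least 1 site in the list of 1544 genomic peaks that RevErbalpha and RevErbbeta shared in mouse macrophages. The sites were chosen by the gene name the authors had assigned to each peak, which gave 7 of 1544 common peaks and 4 of the 1220 gene IDs with a common peak. The rule itself used gene names and no threshold. Hif1a had 1 site, Runx1 had 2, Fos had 3 and Irf5 had 1.

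The study mapped RevErb binding and followed nascent transcription in cells with more or less RevErb. Binding was measured by biotin ChIP-seq, in which a biotin tagged protein and the DNA attached to it are pulled down on streptavidin beads, in RAW macrophages, a mouse macrophage line. These cells expressed biotinylated RevErbalpha or biotinylated RevErbbeta, and the background library came from control RAW cells labelled BirA, the name of a biotin ligase. A form of GRO-seq for the 5' ends of new transcripts, 5'GRO-seq, was run in RAW cells with tagged RevErbalpha and in control RAW cells labelled BTEV-Ctrl. Nascent transcription was measured by GRO-seq in bone marrow derived macrophages grown in L-cell conditioned medium and M-CSF. The double knockout (DKO) macrophages carried Tie2-Cre with RevErbalpha flox/flox and RevErbbeta flox/flox. The WT macrophages carried the same floxed alleles of both genes without Cre, so the floxed alleles were common to both genotypes. The strain was given as C57Bl6 for all samples, those of RAW cells included, and no age was given. Whether that strain holds for the RAW line was not tested. Tie2 is active in endothelial and blood-forming cells, and tagged RevErbalpha in RAW cells was an added protein in a cell line. Each group had 1 sample. The 3 ChIP-seq runs per protein and the 2 gene-level runs per genotype were counted as repeat runs of that sample, so no p-value is given, and the spread between runs is shown in place of replicate error. Whether any run came from treated cells was not told by the column names.

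RevErbs are nuclear receptors of the circadian clock that repress transcription. They bind a core motif, AGGTCA, preceded by bases rich in A and T, and recruit a corepressor complex. In macrophages they are known to bind distal enhancers next to other lineage factors. Hif1a encodes the oxygen-regulated subunit of hypoxia-inducible factor, which also drives glycolysis in activated macrophages. Runx1 encodes a DNA-binding factor needed for the formation of blood cells. Fos encodes a subunit of AP-1 and is an immediate early gene, transcribed within minutes of a stimulus. Irf5 encodes an interferon regulatory factor that acts downstream of Toll-like receptors to induce inflammatory cytokines.

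Each of the 7 sites was 157 bp long on the mm9 build, and most lay far from the start of the gene. The Hif1a site (NM_010431) was at chr12:74880357-74880513, 128419 bp upstream of the start. It was an intergenic enhancer in the authors' classes, meaning high H3K4me1 and low H3K4me3 outside genes. The Runx1 sites (NM_001111022) were at chr16:92867532-92867688, 41299 bp upstream, and at chr16:92852634-92852790, 26401 bp upstream. The first was classed as an enhancer but not as intergenic, and the second as an intergenic enhancer. They were 14898 bp apart. The Fos sites (NM_010234) were all intergenic enhancers and lay on both sides of the gene. They were at chr12:86778648-86778804, 36125 bp upstream, at chr12:86809696-86809852, 5077 bp upstream, and at chr12:86873581-86873737, 58808 bp downstream of the start. They spanned 94933 bp. The Irf5 site (NM_012057) was at chr6:29479118-29479274, 2463 bp downstream of the start, and was the only one of the 7 with H3K4me3 above H3K4me1, the balance typical of promoters. Of the 7 sites 5 were intergenic enhancers (71.4%), against 556 of all 1544 peaks (36.01%). The median distance to the start was 36125 bp for the 7 sites, against 22430.5 bp for all peaks. None of the 7 lay within 1 kb of the start, against 152 of all peaks (9.84%).

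**Figure D1:**
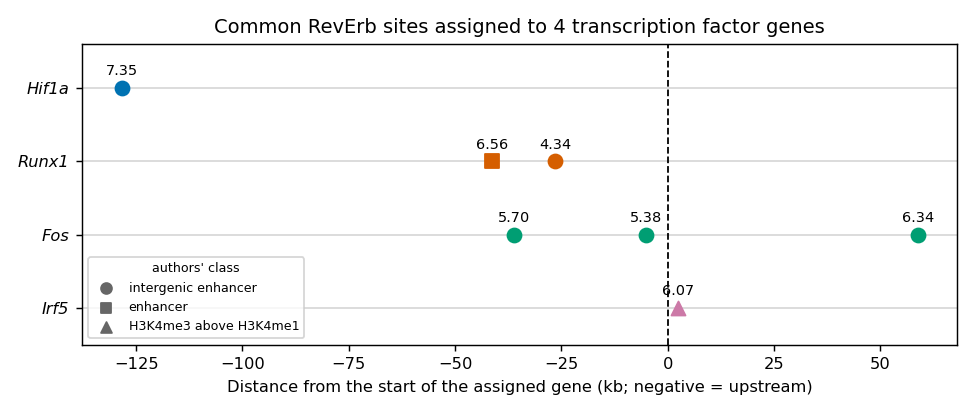
Position of the 7 common RevErb sites along each gene. The x axis gives the distance in kb from the start of the assigned gene (dashed line), the rows are the genes, the marker shape is the authors' class, and the number above a marker is the mean binding of both proteins in log2 tags. The Hif1a site lies farthest upstream and has the highest value, 7.35, and Fos has sites on both sides of its start.

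The assigned gene was the nearest expressed one in the authors' files, and other genes lay nearby. In the RefSeq annotation of GRCm38.p6 the coding genes next to Hif1a are Prkch and Snapc1, those next to Runx1 are Clic6 and Setd4, those next to Fos are Tmed10 and Jdp2, and those next to Irf5 are Kcp and Tnpo3. Prkch, a protein kinase C gene, had 3 common peaks, and the nearest was 168480 bp from the Hif1a site. Tmed10, a gene of vesicle transport, had 2, and the nearer was 13698 bp from the most upstream Fos site. That Tmed10 peak lay 49823 bp from the Fos start. Which gene each site acts on was not tested.

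Windows of the 250 bases before the start of the 4 genes were taken from RefSeq on GRCm38.p6 and searched for AGGTCA on both strands. Of 5 windows, with 2 starts for Runx1, 1 held the RevErb core motif, against 4607 of 32851 windows of the same length for all genes. It was a Hif1a window, where the letters TGACCT, the motif on the other strand, begin 97 bases before that start. The windows of Hif1a and Irf5 and the downstream one of Runx1 were not at the outermost start of the gene. Starts of Hif1a and Irf5 farther upstream were therefore not searched. The windows of the Fos start and of the upstream Runx1 start are shown because these genes had several sites and none within 1 kb of a start. The Fos window is chr12:85473640-85473889 on the plus strand. The Runx1 window is chr16:92826075-92826324 on the minus strand, written 5' to 3'. The capitals in the Fos window mark TGACGT, the core of the cAMP response element known in this promoter, and they begin 66 bases before the start. That motif was chosen after the sequence had been seen, it was searched on both strands, and it was in 2125 of all windows (6.47%). It does not overlap a match to AGGTCA in the Fos window. Neither window below held AGGTCA, and the Runx1 window held neither motif, which says only that these letters are not in this window.
Fos promoter: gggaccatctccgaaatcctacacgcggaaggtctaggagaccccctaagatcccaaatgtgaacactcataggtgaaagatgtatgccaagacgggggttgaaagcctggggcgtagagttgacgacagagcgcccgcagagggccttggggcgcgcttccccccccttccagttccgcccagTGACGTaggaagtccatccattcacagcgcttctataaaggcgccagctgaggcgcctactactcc
Runx1 promoter: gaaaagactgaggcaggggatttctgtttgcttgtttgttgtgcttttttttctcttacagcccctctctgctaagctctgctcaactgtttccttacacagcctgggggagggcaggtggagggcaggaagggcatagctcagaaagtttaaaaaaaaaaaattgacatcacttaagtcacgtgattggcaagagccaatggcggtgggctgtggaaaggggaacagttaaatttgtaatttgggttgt

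RevErb binding was above the BirA level at all 7 sites in the mean of runs, and its strength differed widely among them. Values are log2 tags in 157 bp per 10000000. At the Hif1a site RevErbalpha runs had 7.10, 7.91 and 7.17 and RevErbbeta runs had 6.91, 8.28 and 6.75, against 2.02 in the BirA library. This was the most strongly bound of the 7 sites, with a mean of both proteins of 7.35, rank 71 of 1544.

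The Runx1 sites differed most from each other. At the site 41299 bp upstream RevErbalpha runs had 6.34, 5.84 and 6.31 and RevErbbeta runs had 7.23, 7.49 and 6.12, against 1.80 in BirA. At the site 26401 bp upstream RevErbalpha runs had 4.85, 4.53 and 1.13 and RevErbbeta runs had 4.65, 6.02 and 4.84, against 1.46 in BirA. The first ranked 229 of 1544 by its mean of 6.56, and the second ranked 1495 with 4.34. The low RevErbalpha value came from run 3, which was 0.33 below BirA and corresponds to less than 1 tag in a run of 598490 tags, where 1 tag alone gives 4.15. Without that run the mean was 4.93 and the rank 1243.

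The Fos sites were bound at intermediate levels. At 36125 bp upstream RevErbalpha runs had 5.02, 6.11 and 5.63 and RevErbbeta runs had 5.68, 5.71 and 6.02, against 1.20 in BirA. At 5077 bp upstream RevErbalpha runs had 5.81, 5.17 and 5.04 and RevErbbeta runs had 5.39, 6.37 and 4.52, against 0.02 in BirA. There RevErbalpha runs 2 and 3 and RevErbbeta run 3, the shallow runs, held about 2.39, 1.91 and 1.71 tags. These shallow runs held no more than about 16.4 tags at any of the 7 sites, a value reached at the Hif1a site. At 58808 bp downstream RevErbalpha runs had 5.17, 7.06 and 5.67 and RevErbbeta runs had 7.57, 7.02 and 5.52, against 0.92 in BirA. The downstream site had the highest mean of the Fos sites, 6.34 (rank 310), against 5.70 (rank 652) and 5.38 (rank 893) at the upstream sites. The spread between runs of up to 1.06 (SD of 3 runs) was larger than the gap between neighbours in this order. At the Irf5 site RevErbalpha runs had 5.46, 6.35 and 5.90 and RevErbbeta runs had 5.64, 6.68 and 6.39, against 1.73 in BirA. Its mean of 6.07 ranked 431.

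The 7 sites had a median binding of 6.07, against 5.54 over all common peaks, and 5 of 7 lay above that median. RevErbalpha was below RevErbbeta in the mean of runs at 6 of 7 sites, against 66.1% of all peaks, and the runs of the proteins overlapped at every site. The sites were chosen from peaks that both proteins shared, so a value above BirA was built into the list.

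**Figure D2:**
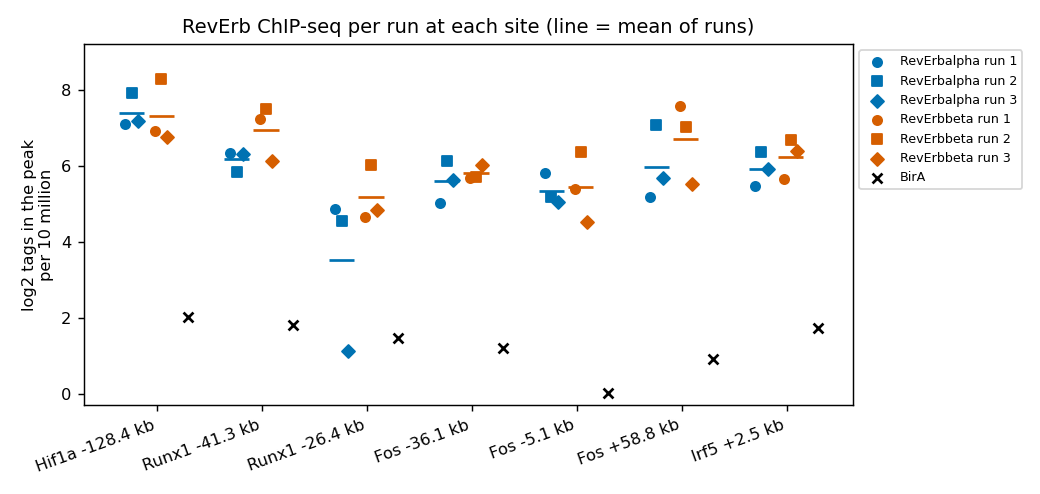
ChIP-seq value of each run at the 7 sites. The y axis is log2 tags in 157 bp per 10000000, each marker is 1 run of RevErbalpha (blue) or RevErbbeta (orange), the line is the mean of 3 runs, and the cross is the BirA library. The runs of the proteins overlap at each site, and RevErbalpha run 3 at the weaker Runx1 site, at 1.13, is the one RevErb value below its BirA cross.

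5'GRO-seq signal in 500 bp at each site was lower with tagged RevErbalpha at 6 of 7 sites, against 966 of 1544 common peaks (62.6%). The median difference was -0.78, against -0.23 over all peaks. One library was measured in each group, and 7238710 tags were in the tagged RevErbalpha library against 18708148 in the control library. The tag numbers given here were back-calculated from the deposited values and carry counting error only.

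At the Hif1a site the value was 6.12 in tagged RevErbalpha cells and 7.39 in control cells, about 49.6 and 312 tags, a difference of -1.27 with a counting SD of 0.22. Its 95% counting interval ran from -1.70 to -0.84. It was the only one of the 7 sites past a difference of 1, and 309 of all peaks (20.0%) were lower by 1 or more. None of the 7 was higher by 1 or more, against 4.92% of all peaks. The Hif1a site ranked 242 of 1544 from the lowest difference, so 15.6% of all peaks had a lower one.

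The other sites fell into a group with lower values and a group near 0. At the Runx1 site 41299 bp upstream the value was 5.67 in tagged RevErbalpha cells and 6.47 in control cells (difference -0.80, counting SD 0.27). At the Irf5 site it was 7.75 in tagged RevErbalpha cells and 8.53 in control cells (-0.78, counting SD 0.13). At the Fos site 58808 bp downstream it was 4.59 in tagged RevErbalpha cells and 5.55 in control cells (-0.96, counting SD 0.39). These 3 sites lay below the median of all peaks by 0.55 to 0.73.

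The remaining 3 sites lay within 0.37 of the median of all peaks. At the Fos site 36125 bp upstream the value was 7.62 in tagged RevErbalpha cells and 7.71 in control cells (-0.09, counting SD 0.14). At the Fos site 5077 bp upstream it was 7.48 in tagged RevErbalpha cells and 7.68 in control cells (-0.20, counting SD 0.15). At the Runx1 site 26401 bp upstream it was 3.79 in tagged RevErbalpha cells and 3.65 in control cells (0.14, counting SD 0.57). The last held about 9.29 tags in tagged RevErbalpha cells and 21.6 in control cells, and the 95% counting interval of its difference ran from -0.97 to 1.25.

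Across the 7 sites stronger binding went with a more negative 5'GRO-seq difference. By the mean of all runs the 4 most strongly bound sites had differences of -1.27 to -0.78, and the 3 most weakly bound had -0.20 to 0.14. The deeper runs were RevErbalpha run 1 and RevErbbeta runs 1 and 2. By these alone the Fos site 5077 bp upstream, at 5.845, passed the Irf5 site, at 5.81, so this split did not hold. As a description, Spearman's rho was -0.93 over the 7 sites, against -0.24 over all 1544 peaks. With the deeper runs only it was also -0.93, against -0.24. For the GRO-seq difference of DKO minus WT at the same sites rho was -0.36 over the 7 sites, against 0.08 over all peaks. The 7 points share the libraries, and 2 genes supply 5 of them, so they are not independent.

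**Figure D3:**
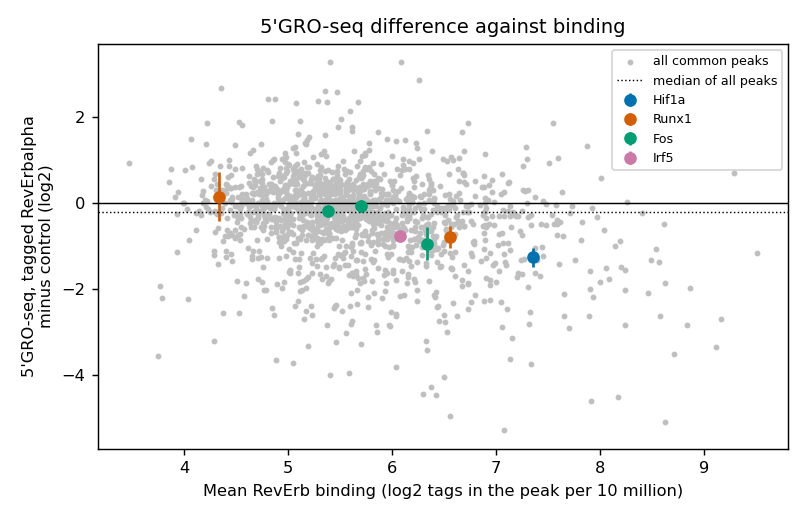
5'GRO-seq difference of tagged RevErbalpha minus control cells (y axis, log2) against the mean RevErb binding of both proteins (x axis, log2 tags in 157 bp per 10000000). Coloured points are the 7 sites with counting SD bars, grey points are all 1544 common peaks, and the dotted line is the median of all peaks, -0.23. The Hif1a site is farthest right and lowest of the 7.

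In bone marrow derived macrophages GRO-seq signal at the sites showed no common direction between genotypes: 4 sites were above and 3 below 0, with a median of 0.18 against 0.03 over all peaks. Fewer cells of a type and less RNA per cell cannot be told apart in these bulk samples. None of the 7 sites was higher by 1 or more in DKO, against 3.37% of all peaks, and none was lower by 1 or more, against 2.20%. At the Hif1a site the log2 signal was 4.97 in DKO and 5.74 in WT, a difference of -0.77 (3.89% of all peaks lower). Its direction was the same as in the RAW cells with tagged RevErbalpha. The Fos site 5077 bp upstream and the Irf5 site also had both differences below 0. So did the nearest Prkch peak, with -1.34 in 5'GRO-seq and -0.19 in GRO-seq. The Prkch peak next to it had -0.42 and -0.17, and that near the Prkch start had 0.70 and -0.38.

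At the Runx1 sites the signal was higher in DKO. At the weaker site it was 1.36 in DKO and 0.51 in WT, a difference of 0.85, which fell to 0.15 when 10 was added before the logarithm. At the stronger site it was 4.33 in DKO and 3.94 in WT, a difference of 0.40, or 0.26 with 10 added. At the Fos sites the differences were 0.18 (3.18 in DKO, 3.00 in WT), -0.34 (4.52 in DKO, 4.86 in WT) and 0.64 (2.66 in DKO, 2.02 in WT) from the most upstream to the most downstream site. The last was 0.23 with 10 added. The Irf5 site had 6.42 in DKO and 6.45 in WT.

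**Figure D4:**
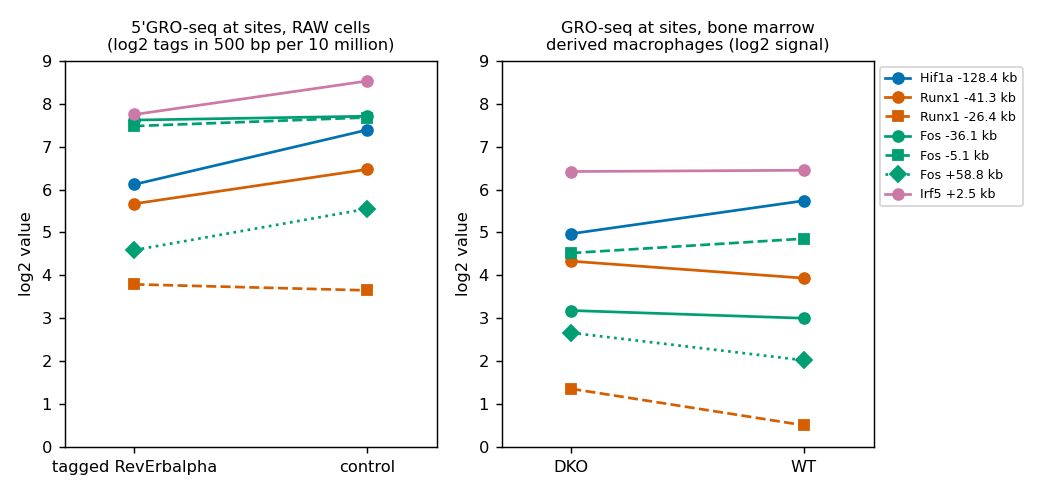
5'GRO-seq (left panel, log2 tags in 500 bp per 10000000, tagged RevErbalpha cells and control cells) and GRO-seq (right panel, log2 signal, DKO and WT macrophages) at the 7 sites. Each line joins the values of 1 site. In the left panel 6 of 7 lines rise toward control, while in the right panel 4 rise toward DKO and 3 rise toward WT.

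At the genes themselves the differences between genotypes were small, and none of the 4 met the rule for a call, a difference of at least 0.5 with runs of the genotypes not overlapping. Of all 1220 genes 1.97% were called higher and 0.738% lower in DKO. Gene-level values are log2 signal, not scaled by length, so levels are not compared between genes.

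Hif1a had 10.99 and 10.89 in DKO runs, against 11.07 and 11.23 in WT runs. Both DKO runs lay below both WT runs, as in 10.0% of all genes, and the difference was -0.21. It ran from -0.29 to -0.13 when single runs were left out. Of all genes 21.97% had a larger absolute difference.

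Runx1 had 14.68 and 14.65 in DKO runs, against 14.63 and 14.50 in WT runs. Both DKO runs lay above both WT runs, as in 18.4% of all genes, by a gap of only 0.02, and the mean difference was 0.10. With the median difference of all genes set to 0 the runs overlapped. The median difference of all genes was 0.04 and the median absolute difference was 0.11.

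Fos had 9.84 and 10.62 in DKO runs, against 9.95 and 9.78 in WT runs. The runs overlapped, and DKO run 2 stood above the others. The difference was 0.37, or -0.03 without DKO run 2, and 0.76 without DKO run 1, when the gene would be called higher. In that setting 67 of 1220 genes were called higher. Irf5 had 10.85 and 11.16 in DKO runs, against 10.94 and 10.74 in WT runs. These runs also overlapped, and the difference of 0.17 was 0.01 without DKO run 2 and 0.32 without DKO run 1. The genotypes' runs were separate without DKO run 1 and without WT run 1, and the gene was not called in either case. DKO runs lay above WT runs in 536 of 1220 genes without DKO run 1 and in 499 without WT run 1.

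**Figure D5:**
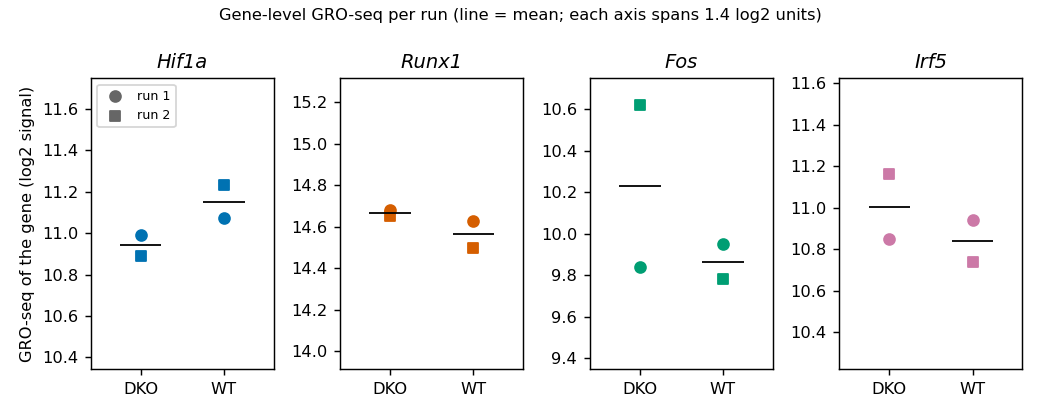
Gene-level GRO-seq of each run in DKO and WT macrophages. The y axes are log2 signal, each spans 1.4 units, markers are runs 1 and 2 and lines are means. Runs of the genotypes are separate for Hif1a and Runx1 and overlap for Fos and Irf5, where DKO run 2 is highest.

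DKO runs 1 and 2 also differed at other genes. Of the 14 genes of the AP-1 and immediate early list with a common peak, Fos included, 11 were higher in DKO run 2 than in DKO run 1, with a median of 0.26, against 730 of 1220 genes and 0.06. Egr1 and Fosb, both immediate early genes, were lower in DKO run 2 (7.26 and 6.39) than in DKO run 1 (7.46 and 6.85). The run difference was not limited to this list, since 7 of 8 macrophage markers were higher in DKO run 2, and the IRF list with Irf5 had a median of 0.20. Without DKO run 2 the median difference between genotypes over the 14 genes was 0.06, and without DKO run 1 it was 0.38. The part of this run difference in the Fos value was not tested. By the distance between run values centred on each gene's own mean over 4 runs, the genes most like Fos were Klf2, a zinc finger factor (distance 0.06), and Dusp1, a MAP kinase phosphatase that is itself an immediate early gene (0.16). Klf2 had 8.55 and 9.28 in DKO runs, against 8.68 and 8.52 in WT runs. Klf2 was the one gene within 0.1 of Fos, while 24, 65 and 21 genes lay within 0.1 of Hif1a, Runx1 and Irf5. The 2 nearest were Slc4a7 and Cds1 for Hif1a, Rab40c and Senp2 for Runx1, and Ing4 and Ppp1r12c for Irf5.

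Among the other genes of the 4 factors' lists that had a common peak, 1 was called between genotypes, in the AP-1 and immediate early list. Of all genes 1.97% were called higher and 0.738% lower in DKO. Of 31 other genes of the HIF pathway 3 had a common peak, and none was called. Egln3, a prolyl hydroxylase that marks HIF subunits for decay, differed by 0.27, and the glycolytic genes Pkm and Hk2 by 0.01 and 0.00. Of 4 sites of these genes 1 was lower by 1 or more in 5'GRO-seq, at Pkm (-1.12), beside 20.0% of all common peaks lower and 4.92% higher, the shares to set beside the counts of the other lists. Of 17 others in the RUNX list 5 had a peak and none was called. Cebpa, a myeloid factor, differed by 0.28, and Csf1r, the M-CSF receptor gene, by 0.10, and Ets2, an ETS factor, by -0.07. Of their 7 sites none was lower and 2 were higher by 1 or more in 5'GRO-seq, at Fli1 (1.90) and Cebpa (1.19).

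Of 30 others in the AP-1 and immediate early list 13 had a peak, with a median difference of 0.20, against 0.04 over all genes. Egr3, a zinc finger factor induced by growth signals, was the one called higher, with 4.51 and 4.98 in DKO runs, against 3.91 and 4.09 in WT runs, a difference of 0.75. Of their 23 sites 3 were lower by 1 or more in 5'GRO-seq, against 20.0% of all peaks, at Ier3, Fosl2 (-1.63) and Dusp1 (-1.23), and none was higher. The Ier3 site held less than 1 tag in tagged RevErbalpha cells and about 42.0 in control cells, so no fold is given. The Fosl2 site held about 3.54 tags in tagged RevErbalpha cells and 32.3 in control cells. Of 25 others in the IRF list 5 had a peak, none was called, and the largest differences were 0.14 at Slc15a4, 0.13 at Irf8 and -0.11 at Tlr4. None of their 8 sites passed 1 in 5'GRO-seq. Of 52 other macrophage transcription factors 16 had a peak, none was called, and the median difference was 0.03. The largest were 0.43 at Id3, 0.36 at Tfeb, a factor of lysosome genes, and 0.34 at Klf4. Another gene ID of Tfeb differed by 0.14. Of their 20 sites 2 were lower by 1 or more in 5'GRO-seq, both at Klf6. One held about 1.34 tags in tagged RevErbalpha cells and 30.2 in control cells, and the other differed by -1.64.

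Of 17 macrophage markers 8 had values, among them Csf1r, and of 22 markers of other cell types none had, since the table holds only expressed genes with a common peak. That check therefore says little on the purity of the samples. Of the macrophage markers Cx3cr1, the fractalkine receptor gene, was called higher, as were 1.97% of all genes. It had 10.24 and 10.40 in DKO runs, against 8.19 and 9.16 in WT runs. Farther from Irf5 than its adjacent genes, 2 genes had a common peak within 200 kb of the Irf5 site. Tspan33, a tetraspanin gene with its peak 156994 bp away, had 6.0 and 6.76 in DKO runs, against 4.79 and 5.14 in WT runs. The difference was 1.42 with runs not overlapping, so Tspan33 met the rule for a call, as did 1.97% of all genes in that direction. Calu, a calcium-binding protein gene with its peak 181335 bp away, had 10.26 and 10.04 in DKO runs, against 9.95 and 10.42 in WT runs, and these overlapped. Around Hif1a, Prkch differed by -0.10 with both DKO runs below both WT runs. Around Fos, Tmed10 differed by -0.15, also with both DKO runs below both WT runs. Of all genes 10.0% had both DKO runs below both WT runs, and the median absolute difference was 0.11.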

How the data were processed

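Binding, 5'GRO-seq and GRO-seq values were taken from the authors' summary table of common peaks. Of 15 libraries in the labels 7 were used here. The build was mm9, and the tools listed are Bowtie 0.12.7 and HOMER, per the submitters' processing notes. The deposited values are log2, per the file headers: tags in 157 bp (ChIP-seq) or 500 bp (5'GRO-seq) per 10000000, with no further scaling given for GRO-seq. They were not on whole-tag steps and were not treated as counts. BirA values come from a column headed BirA-input, taken as the BirA library of the labels although an input is possible. Runs held 598490 to 5276592 tags for RevErb, and the gene-level runs 34852907 to 46649008.

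Runs were averaged on the log2 scale as 1 sample. A peak was counted past a log2 difference of 1, and a gene past 0.5 with runs not overlapping. Counting errors cover tag numbers only. The gene rule was tested on simulated data and the motif search on a made sequence, while the peak threshold and the counting errors were not tested. Python 3.11.15, numpy 2.4.6, pandas 2.3.3 and matplotlib 3.10.9 were used.

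Members and lists were chosen with earlier results of these data known. Named genes were all members' sites, the called genes of each list or else its 3 largest differences, and the 2 nearest genes by run values. Sites of list genes named for 5'GRO-seq were those past 1, and neighbours and the cAMP motif were chosen after their values were seen. No per-sample column was left unused. Alternatives were deeper runs only, each run left out, 10 added before the logarithm, peaks or genes above the lower quartile, and medians set equal. Promoter sequences are from RefSeq, GRCm38.p6. Site sequences on mm9 were not used here.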

Additional observations from a re-analysis of the deposited data

How the results depend on the processing

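The median binding of the 7 sites was 6.07, 5.85 with the deeper runs only and 5.96 to 6.18 with 1 run left out. With 10 added before the logarithm the Hif1a site stayed past a 5'GRO-seq difference of 1, and the share of all peaks lower by 1 or more was 11.7%, against 20.0%. The number of the 4 genes called was 0 to 1 over the leave-one-out settings, the 1 being Fos without DKO run 1. Called genes in the pathway and family lists numbered 1 with all runs and 3 to 10 with 1 run left out, where a single run makes overlap less likely. No result of the 7 sites or 4 genes reversed its sign past a threshold, but some small differences changed sign. The Fos gene difference of 0.37 was -0.03 without DKO run 2. RevErbalpha minus RevErbbeta at the Hif1a site was 0.08, and -0.495 with the deeper runs only. At the Fos site 36125 bp upstream it was -0.22, and 0.07 without RevErbalpha run 1. At the Fos site 5077 bp upstream it was -0.09, and 0.385 without RevErbbeta run 2. The count of sites with RevErbalpha below RevErbbeta thus depended on the runs used. With 1 run left out 33 to 67 genes of 1220 were called higher, against 24. Setting run medians equal, an alternative chosen after seeing the data, gave 20. With 10 added all 7 GRO-seq site differences were closer to 0 and kept their sign, the Hif1a one at -0.63. No paired analysis was possible because each group has 1 sample. Depth limits the weaker Runx1 site most.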
